A study of Mus musculus with 22 samples.

Results

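The 10 genes described here (Axin2, Sp5, Sp8, Lef1, Tcf7, Notum, Nkd1, Dkk1, Rspo3 and Lgr5) are targets, feedback inhibitors and modulators of canonical Wnt signalling, taken by symbol from the 32285 genes of the count matrices. Gastruloids are aggregates of mouse embryonic stem cells that form germ layers and a body axis in culture. Every gastruloid started from 300 cells and was treated with CHIR99021 at 3 µM, which blocks the kinase GSK3, 48 h after seeding. No group without CHIR99021 was compared, so the values follow the genes after it was added. When CHIR99021 was taken off was not stated in the labels used. Single-cell RNA was read in a pooled 10X experiment (1 lane each of day 3 and day 4) and in MULTI-seq experiments, in which a lipid-anchored DNA barcode marked the cells of each gastruloid before pooling. Pool is used below for the gastruloids that shared lanes. The labels use this word only for MULTI-seq 2. The authors' table gives each such set of MULTI-seq 3 its own experiment number, although the sample titles name them as a single experiment. The gastruloid was the replicate: 24 of day 5 in MULTI-seq 1, 11 of day 4 and 12 of day 4.5 in MULTI-seq 2, and 24 of day 3 and 16 each of days 3.5, 4, 4.5 and 5 in MULTI-seq 3, all of a single stem cell line. The authors' table also gives each gastruloid a class: neural or mesodermal up to day 4.5, and neural, intermediate or mesodermal at day 5.

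In the canonical pathway, Wnt ligands bind Frizzled and Lrp receptors and stop a complex with Axin, Apc and Gsk3 from destroying β-catenin, which then acts in the nucleus with the DNA-binding factors of the Tcf and Lef family. Inhibition of Gsk3 by CHIR99021 bypasses the receptors. Among the genes switched on are inhibitors that act back on the pathway at different steps, and in the embryo the pathway maintains the posterior growth zone that gives rise to presomitic mesoderm and spinal cord.

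The members act at different levels. Axin2 (chromosome 11, 108920349 to 108950783, plus strand, GRCm38) is a scaffold of the destruction complex, and Nkd1 (chromosome 8, 88521354 to 88594884) is a cytoplasmic antagonist that binds Dishevelled. Notum (chromosome 11, 120653788 to 120661175) is a secreted enzyme that inactivates Wnt ligands, and Dkk1 (chromosome 19, 30545863 to 30549665) is a secreted antagonist of the Lrp co-receptors. Sp5 (chromosome 2, 70474923 to 70477729) and Sp8 (chromosome 12, 118846329 to 118852576) are zinc finger factors downstream of Wnt in the streak and tail bud. Lef1 (chromosome 3, 131110471 to 131224356) and Tcf7 (chromosome 11, 52252371 to 52283014) are the DNA-binding partners of β-catenin. Rspo3 (chromosome 10, 29452416 to 29535867) is a secreted R-spondin that strengthens Wnt signals, and Lgr5 (chromosome 10, 115450311 to 115587780) is a receptor of R-spondins. All are annotated as protein-coding in GENCODE vM21, which lists an overlapping gene on the opposite strand, also present in the count files, for Axin2, Lef1, Tcf7, Notum, Rspo3 and Lgr5; whether the counting used strand was not stated in the labels.

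The sequence that Tcf and Lef proteins bind has a core that was searched on both strands in 4 forms, CTTTGAA and CTTTGAT, together with the forms that end in TA (CTTTGTA) and in TT (CTTTGTT), in the 250 bases before RefSeq transcript starts (GRCm38.p6). Promoter windows were found for 7 of the 10 members. Of all 32851 windows of this length 14.8% held a match and 1.43% held 2 or more; of the 13 member windows 4 held a match. The windows of Sp5 and Axin2 are shown because Sp5 had a pair of matches and Axin2, a widely used readout of the pathway, had none in this window; capitals mark the matches. The stretch of Dkk1, whose window also held a pair, is cut to the matches and lies inside the longer gene model of GENCODE. Sp5 is at chr2:70474673-70474922 on the plus strand, Axin2 at chr11:108920099-108920348 on the plus strand and the Dkk1 stretch at chr19:30549588-30549613 on the minus strand.
Sp5: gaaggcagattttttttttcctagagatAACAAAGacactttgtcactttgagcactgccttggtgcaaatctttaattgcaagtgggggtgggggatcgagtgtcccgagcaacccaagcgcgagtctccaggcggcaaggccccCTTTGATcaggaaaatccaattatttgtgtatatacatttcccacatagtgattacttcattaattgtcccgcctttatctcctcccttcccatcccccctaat
Axin2: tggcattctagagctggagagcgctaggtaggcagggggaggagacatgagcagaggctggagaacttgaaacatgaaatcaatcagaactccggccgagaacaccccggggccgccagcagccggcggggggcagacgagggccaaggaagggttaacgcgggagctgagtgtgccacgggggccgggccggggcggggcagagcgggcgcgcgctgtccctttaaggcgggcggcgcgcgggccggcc
Dkk1: CTTTGAAatcccatcccggCTTTGTT

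The 18 lanes used held 64703013 to 307883815 unique molecular identifiers (UMIs, the count of captured RNA molecules), and the gastruloid sums 1293296 to 57333371. Levels are given as CPM, the UMIs of a gene scaled by all UMIs of the sum to the usual counts-per-million unit. Lanes shared 35 to 128 cell barcodes with another lane. The median share of mitochondrial UMIs was 1.94% to 2.26% in the lanes of MULTI-seq 3 and 4.85% to 5.48% in the others. Of 84 marker values fixed for 24 of the authors' 25 cell types, 80 were above the median of the other types; the exceptions were Pax6 and Irx3 in Early and Caudal Neurectoderm. The 3 blood markers reached at most 0.364 CPM in any gastruloid. Other lists were fixed for further cells the culture could hold. Krt8 of the trophoblast list reached 197 CPM, Tfap2c 14.9 and Gata3 11.1. In the visceral or parietal endoderm list Lamb1 reached 85.5, Ttr 4.96, Apoa1 0.975 and Afp 0.198. In the list for undifferentiated stem cells Zfp42 reached 10.4, Klf4 9.93 and Esrrb 1.16.

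Levels across cell types fell into a narrow and a wide group of genes, in the 20 types with at least 4 gastruloids of at least 20 cells. The authors named the types from gene expression, so these levels are a description with no test. They pool days and experiments, and the mix of these differs between types. Axin2 in Early Posterior PSM, for example, averaged 53.1 CPM at day 3 and 94.0 at day 3.5 of MULTI-seq 3. The order of the types can thus depend on the mix of days. The mean log2 level of Axin2, Nkd1 and Tcf7 spanned 2.14, 1.90 and 2.08 between the lowest and the highest type, and for none of the 19 neighbouring pairs in the order of types was the gap larger than the SDs of both types; the latter held also for Dkk1, whose levels spanned 6.20. Axin2 was highest in Somites at 92.9 ± 24.1 CPM (SD, n = 27), followed by Early Posterior PSM (presomitic mesoderm) at 81.1 ± 18.1 (n = 34), and lowest in Late Spinal Cord at 21.2 ± 10.7 (n = 35). Nkd1 ranged from 66.9 ± 19.4 in Notochord (n = 9) to 17.2 ± 5.35 in Cardiopharyngeal Mesoderm (n = 12). Tcf7 ranged from 44.95 ± 5.23 in Primitive Streak (n = 37) to 10.3 ± 3.56 in Late Spinal Cord (n = 35).

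The other 7 members differed far more between types. Rspo3, with the widest span at 7.45 on the log2 scale, stood at 972 ± 139.9 CPM in Notochord (SD, n = 9) and 965 ± 169 in Late Posterior PSM (n = 71), and at 4.65 ± 1.27 in Late Neurectoderm (n = 8). Lef1 was highest in Late Anterior PSM at 731 ± 75.8 (n = 40) and Early Anterior PSM at 706 ± 50.1 (n = 15), which did not differ beyond their spread, and lowest in Mature Endoderm at 11.5 ± 7.17 (n = 31). In the posterior PSM, which precedes the anterior PSM along the axis, Lef1 was lower and Rspo3 higher than in the anterior types. Sp5 reached 315 ± 34.5 in Early Nascent Mesoderm (n = 15) and 4.28 ± 3.62 in Somites (n = 27), the type in which Axin2 was highest.

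Sp8 and Notum were both highest in NMPs, the neuromesodermal progenitors of the tail end, at 74.55 ± 17.97 and 24.2 ± 10.2 CPM (SD, n = 53). Their low ends differed in size: Sp8 was 1.08 ± 2.04 in Head Mesoderm (n = 17), and Notum was 0.221 ± 0.494 in Somites (n = 27). Sp8 stayed at 43.8 ± 11.8 in Late Spinal Cord (n = 35), where Sp5 was at 8.15 ± 9.61. Dkk1 and Lgr5 were high outside the posterior axis. Dkk1 was 99.9 ± 68.9 in Mature Endoderm (n = 31), 82.0 ± 64.9 in Early Nascent Mesoderm (n = 15) and 68.6 ± 49.9 in Cardiopharyngeal Mesoderm (n = 12), values that overlap widely, and 0.174 ± 0.327 in Late Spinal Cord (n = 35). Lgr5 was 18.1 ± 8.46 in Mature Endoderm (n = 31) and 19.9 ± 16.9 in Head Mesoderm (n = 17), against 0.268 ± 0.315 in Primitive Streak (n = 37).

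**Figure D1:**
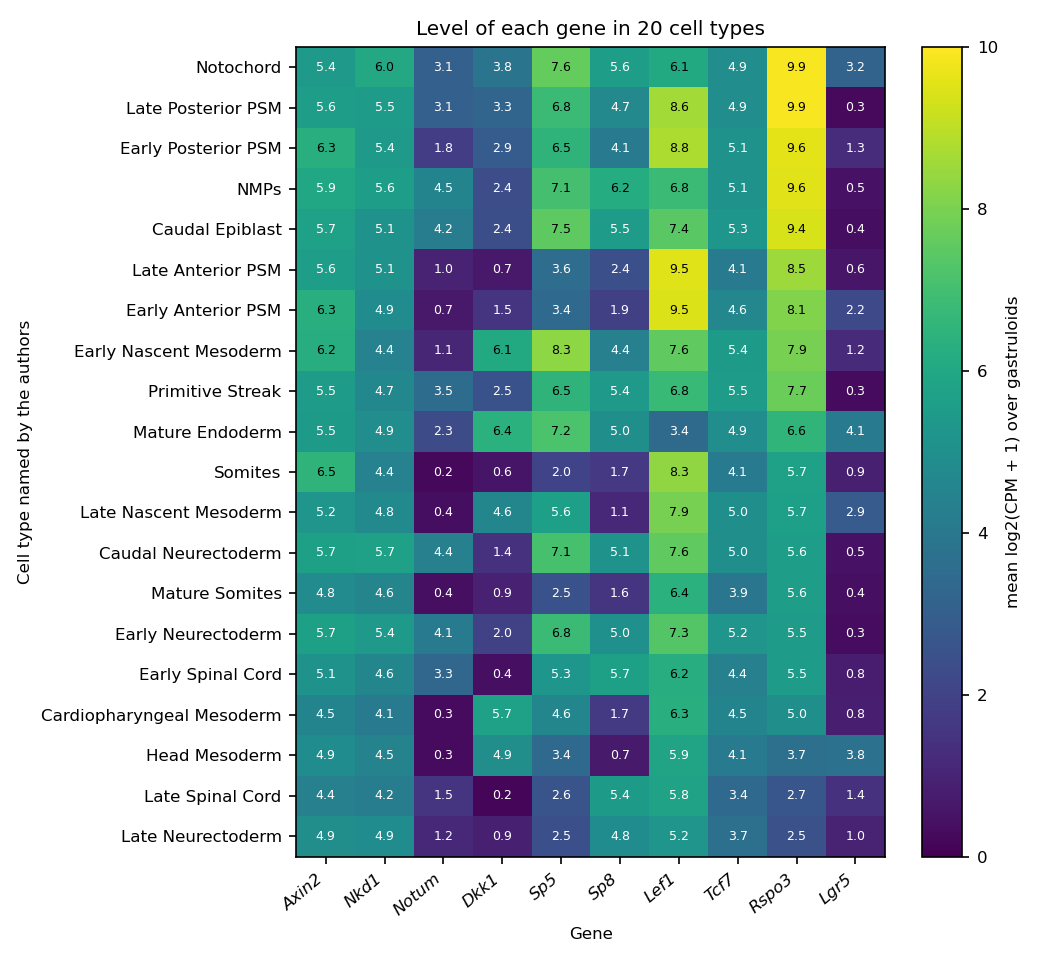
Mean log2(CPM + 1) over gastruloids of all days and experiments, for each gene (columns) in 20 cell types (rows, ordered by Rspo3). The colour runs from 0 to 10. Axin2, Nkd1 and Tcf7 vary little down their columns, whereas Rspo3 spans 7.45; Lef1 peaks in the anterior PSM rows, and Dkk1 and Lgr5 in Mature Endoderm.

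Over the 20 types, which share lanes and experiments, the gene most like Axin2 among 9525 with at least 10 CPM in a type was Egr1 (Pearson r = 0.845), an early response factor, followed by Spry4 (0.796), a feedback inhibitor of FGF signalling. For Sp5 these were the member Tcf7 (0.898) and Epha1 (0.891), and for Tcf7 they were Galt (0.914) and Sp5 (0.898). Cdx2, a caudal homeobox gene, was the first for Notum (0.953) and the second for Sp8 (0.924), with Aspscr1 (0.952) and Ptpn14 (0.935) as the other genes. Lef1 was most like Lef1os1 (0.964), named as its opposite-strand gene, and Plekha3 (0.878). For Dkk1 the genes were Hhex (0.886), an endoderm factor, and Itpr3 (0.862), for Rspo3 Ets2 (0.895) and Hes7 (0.895), a cyclic gene of the PSM, for Nkd1 Pus7l (0.772), and for Lgr5 Erlin2 (0.873) and Gm47664 (0.872).

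Between day 3.5 and day 4, sampled in a single pool of MULTI-seq 3, 6 of the 10 members fell, Lgr5 rose, and Lef1, Dkk1 and Rspo3 did not pass the test. The falls were in 3 feedback genes (Axin2, Nkd1, Notum), both Sp factors and Tcf7. These counts stand against 60.4% of the 13262 genes tested that passed at an adjusted p under 0.05 (31.1% higher and 29.2% lower at day 4), so a share of 7 in 10 is near the background. In these sums over a gastruloid, fewer cells of a type and less RNA per cell cannot be told apart. The class of the gastruloids moved with the day: 10 of 16 were neural at day 3.5 and 2 of 16 at day 4.

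Notum was at 3.66, 15.7 and 26.9 CPM (lowest, median and highest of 16 gastruloids) at day 3.5 and at 1.68, 3.56 and 15.5 at day 4. It fell by 1.88 on the log2 scale (SE 0.30, edgeR adjusted p = 3.57e-06), with each of the 16 later gastruloids under the median of the earlier ones. Sp5 was at 82.4, 155 and 186 at day 3.5 and at 44.5, 68.5 and 124 at day 4, and fell by 1.14 (SE 0.13, edgeR adjusted p = 1.57e-08). The ranges of both genes overlapped between the days, but all 16 later values of Sp5 too lay under the earlier median.

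Sp8 was at 20.4, 34.9 and 40.2 CPM at day 3.5 and at 7.73, 13.5 and 33.4 at day 4, a fall by 1.04 (SE 0.17, edgeR adjusted p = 5.28e-06). Nkd1 was at 35.8, 55.1 and 72.0 at day 3.5 and at 20.8, 34.3 and 49.6 at day 4, a fall by 0.76 (SE 0.11, edgeR adjusted p = 7.19e-07). The smallest called falls were those of Tcf7 (0.40, SE 0.07, edgeR adjusted p = 2.76e-05) and Axin2 (0.35, SE 0.12, adjusted p = 0.0113), and 11 of 16 later gastruloids were under the earlier median of Axin2. Lgr5 was at 0.350, 1.04 and 4.18 CPM at day 3.5 and at 0.546, 3.77 and 22.6 at day 4, a rise by 1.98 (SE 0.41, edgeR adjusted p = 0.000137). In 14 of 16 gastruloids of day 4 Lgr5 was above the median of day 3.5, and Mature Endoderm held 36.4% of its UMIs and 8.64% of the cells at day 4, against 4.90% and 0.983% at day 3.5; the part of this shift in the rise was not tested.

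Within the mesodermal class alone, the mean of Sp5 was 165 ± 13.6 CPM (SD, n = 6) at day 3.5 and 69.6 ± 22.1 (n = 14) at day 4, and that of Notum 8.17 ± 3.82 and 3.33 ± 1.57. Nkd1 stood at 49.8 ± 8.53 and 32.0 ± 8.63, and Sp8 at 26.3 ± 5.99 and 13.6 ± 4.32. These descriptions keep the direction of the falls over all gastruloids. Dkk1, by contrast, stood at 30.1 ± 12.3 and 26.5 ± 11.04 in the mesodermal class, while its fitted change over all gastruloids was 0.62 (SE 0.42, edgeR adjusted p = 0.204). For Lef1 and Rspo3 the fitted changes over all gastruloids were 0.19 (SE 0.18) and 0.09 (SE 0.28), with edgeR adjusted p of 0.365 and 0.803. In the mesodermal class the mean of Rspo3 was instead lower at day 4, at 585 ± 65.9 and 411 ± 199 CPM. That of Lef1 was 338 ± 49.4 and 315 ± 106. These class values were not tested.

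**Figure D2:**
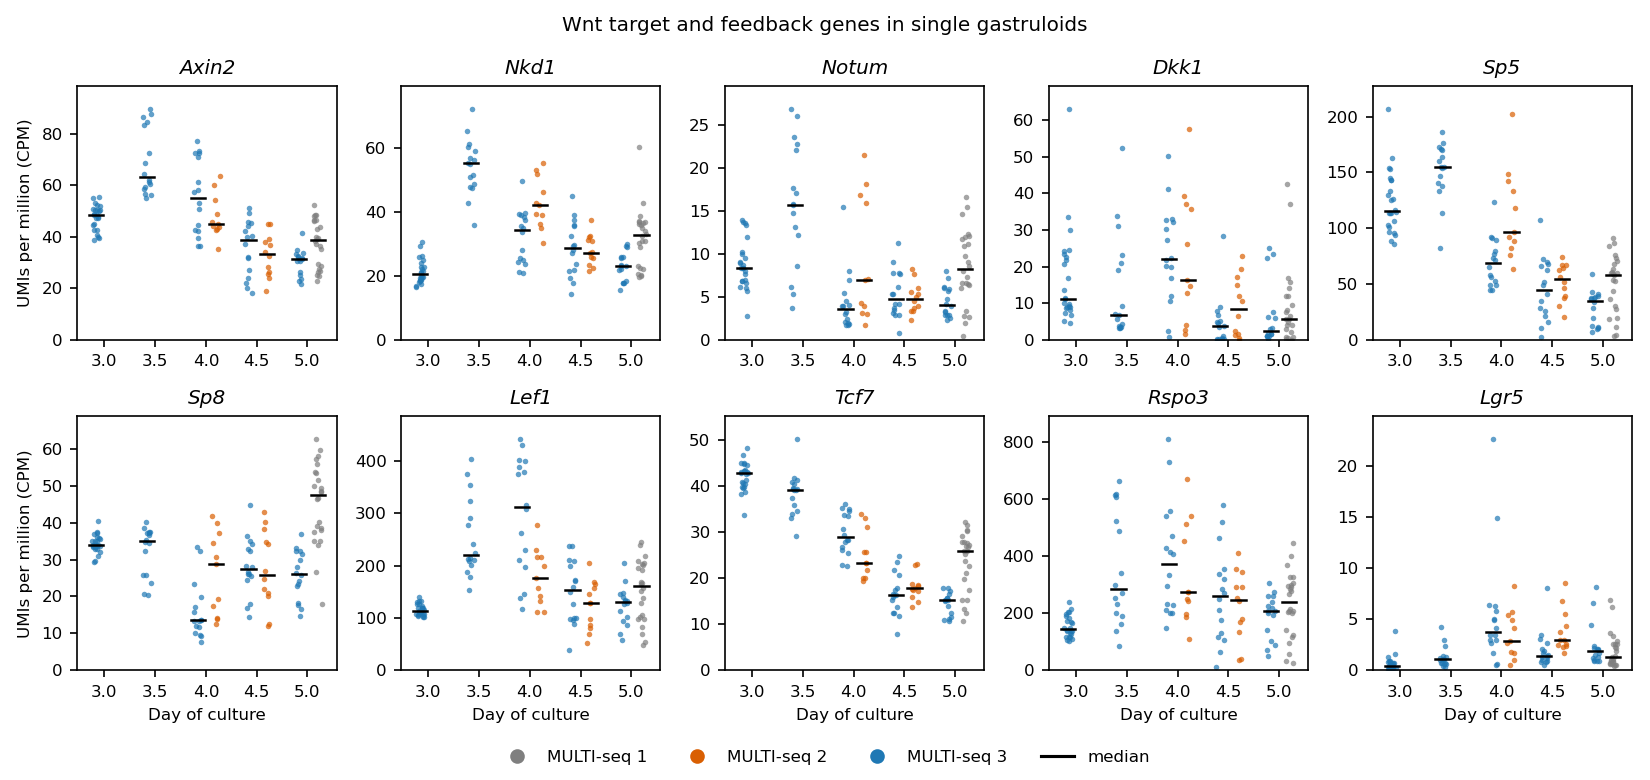
CPM of each gene (panels, y axes from 0) against the day of culture (x axis); each point is a gastruloid, coloured by experiment, and black bars are medians. Notum and Sp5 drop from day 3.5 (medians 15.7 and 155) to day 4 (3.56 and 68.5) in MULTI-seq 3, and Lgr5 is highest in single gastruloids of day 4.

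From day 4 to day 4.5 in MULTI-seq 2, also a single pool, 4 members fell (Axin2, Nkd1, Sp5 and Tcf7) and none rose. The background was 7.36% of 11064 genes (3.03% higher and 4.33% lower); without lane 2 the called genes fell from 814 to 535 and without lane 3 to 340. Neural gastruloids were 3 of 11 at day 4 and 5 of 12 at day 4.5. Sp5 was at 63.7, 96.2 and 202 CPM (lowest, median and highest) in 11 gastruloids of day 4 and at 20.6, 54.1 and 74.0 in 12 of day 4.5, and fell by 1.13 (SE 0.19, edgeR adjusted p = 0.000829). All 12 later gastruloids were under the earlier median of Sp5, Nkd1 and Tcf7, although the ranges of the days overlapped for each.

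Nkd1 was at 30.2, 42.2 and 55.0 CPM at day 4 and at 21.4, 27.2 and 37.5 at day 4.5, and fell by 0.62 (SE 0.10, edgeR adjusted p = 0.000550). Axin2 fell by 0.55 (SE 0.12, edgeR adjusted p = 0.00559) and Tcf7 by 0.51 (SE 0.11, adjusted p = 0.00432). The point estimates of Lef1 (-0.55, adjusted p = 0.0866) and Dkk1 (-1.29, SE 0.49, edgeR adjusted p = 0.114) were of like or larger size and did not pass. Without lane 3, which left a single lane of the pool, the change of Axin2 was -0.44 and was not called (edgeR adjusted p = 0.0844). Without lane 2 that of Lef1 was -0.70 with an edgeR adjusted p of 0.0288. Leaving out a lane also lowers the cells and UMIs of the gastruloids, and the part of this was not tested. Split by the scaling, 41.2% of all called genes were higher at day 4.5, or 57.3% with library totals in place of TMM factors, and the 4 members were called under both.

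In MULTI-seq 3 days 4 and 4.5 came from different pools, so pool and day cannot be told apart. Here Axin2, Tcf7, Lef1, Dkk1 and Lgr5 were lower at day 4.5 and Sp8 was higher, against a background of 66.1% of 12843 genes (32.4% higher and 33.8% lower). Of the gastruloids 2 of 16 were neural at day 4 and 7 of 16 at day 4.5, and the part of this shift in the differences was not tested. Dkk1 showed the widest gap, from 0.864, 22.1 and 50.3 CPM at day 4 to 0.000, 3.68 and 28.5 at day 4.5 (log2 change -2.07, SE 0.50, edgeR adjusted p = 0.000502). Lef1 went from 117, 312 and 442 CPM to 38.5, 154 and 238 (log2 change -0.79, SE 0.21, edgeR adjusted p = 0.00178), and all 16 later gastruloids were under the earlier median. Sp8 went from 7.73, 13.5 and 33.4 CPM to 14.5, 27.4 and 44.9 (log2 change 1.02, SE 0.19, edgeR adjusted p = 1.65e-05). Lgr5 was lower by 1.26 on the log2 scale (log2 change -1.26, SE 0.41, edgeR adjusted p = 0.00715). With library totals the median of all genes moved from -0.02 to -0.22, the share of called genes that were higher went from 48.9% to 24.5%, and Sp5 was called lower as well (-0.62, edgeR adjusted p = 0.0442).

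The day 4 to 4.5 change itself differed between MULTI-seq 3 and MULTI-seq 2 for Notum, Sp8 and Nkd1, in an interaction fit that called 33.9% of 12551 genes. The share of members called was thus near the background. The shares of neural gastruloids given above moved between these days in both experiments, and their part in the differences was not tested. For Sp8 the changes were 1.02 in MULTI-seq 3 and 0.06 in MULTI-seq 2 (difference 0.95, SE 0.32, edgeR adjusted p = 0.0158). For Nkd1 the changes were 0.03 and -0.62 (difference 0.64, SE 0.20, edgeR adjusted p = 0.00907), and for Notum 0.52 and -0.84 (difference 1.37, SE 0.50, adjusted p = 0.0281). None of the 3 differences passed with at least 100 cells per gastruloid, those of Notum and Nkd1 did not pass with library totals, and that of Notum did not pass without the filter on low counts (edgeR adjusted p = 0.0593). Lgr5 passed with library totals (-1.51, edgeR adjusted p = 0.0333) and not in the fit reported (-1.29, adjusted p = 0.0804). The MULTI-seq 3 side of these differences rests on different pools.

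Between day 4.5 and day 5, a single pool of MULTI-seq 3, none of the 10 members passed the edgeR test, against 13.5% of 12298 genes (6.35% higher and 7.11% lower). Of the 16 gastruloids of day 4.5, 7 were neural and 9 mesodermal; of the 16 of day 5, 4 were neural, 4 intermediate and 8 mesodermal. Axin2, Sp5 and Nkd1 had an unadjusted p under 0.05, and 8 of the 10 point estimates were below 0, where the median change of all genes was -0.0007. The share of all genes with an unadjusted p under 0.05 is not given here. The members also share gastruloids and cell types, so these counts are not read as a result about them. Nkd1 was at 14.3, 28.5 and 45.0 CPM at day 4.5 and at 15.6, 22.9 and 29.9 at day 5 (log2 change -0.35, SE 0.13, edgeR adjusted p = 0.0622). It passed with DESeq2 (1 of 10 members called, -0.35, adjusted p = 0.0429) and with edgeR without lane B (-0.38, adjusted p = 0.0480). Sp5 was at 2.78, 44.7 and 107 CPM at day 4.5 and at 7.14, 34.9 and 59.2 at day 5 (log2 change -0.68, SE 0.33, edgeR adjusted p = 0.170). Of all called genes 47.2% were higher at day 5, or 58.3% with library totals, under which 0 members were called.

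From day 3 to day 3.5, again different pools of MULTI-seq 3, Axin2, Nkd1, Notum, Lef1 and Rspo3 were higher at the later day and Sp8 and Tcf7 lower, of 9 members tested; the background was 74.8% of 11981 genes (39.3% higher and 35.6% lower). Neural gastruloids were 13 of 24 at day 3 and 10 of 16 at day 3.5. Lgr5 did not pass the filter on low counts, with 0.000, 0.420 and 3.87 CPM at day 3. Nkd1 was at 16.6, 20.4 and 30.4 CPM at day 3 and at 35.8, 55.1 and 72.0 at day 3.5 (log2 change 1.16, SE 0.07, edgeR adjusted p = 5.81e-19), and the values of the days did not overlap. Lef1 went from 101, 114 and 140 to 154, 219.8 and 405 CPM (0.98, SE 0.09, edgeR adjusted p = 2.05e-12), without overlap in CPM but with overlap after TMM scaling. The single 10X lane of day 3 stood at 43.3 CPM for Nkd1 and 180 for Lef1. Both values were above every day 3 gastruloid of MULTI-seq 3 and inside the ranges of day 3.5. Rspo3 went from 102, 143 and 239.7 to 85.1, 284 and 664 (1.06, SE 0.19, edgeR adjusted p = 3.98e-06), so that its spread at day 3.5 held the whole range of day 3.

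The remaining called changes were smaller: Notum 0.64 (SE 0.19, edgeR adjusted p = 0.00224), Axin2 0.39 (SE 0.07, adjusted p = 2.55e-06), Tcf7 -0.29 (SE 0.05, adjusted p = 4.77e-07) and Sp8 -0.26 (SE 0.06, adjusted p = 0.000429). The scaling weighs on this pair of pools, since library totals moved the median of all genes from 0.03 to 0.19 and the share of called genes that were higher from 52.5% to 72.1%. Relative to library totals Sp8 was not called (-0.09, edgeR adjusted p = 0.221) and Sp5 was (0.29, adjusted p = 0.00424). The comparisons above share the gastruloids of days 3.5, 4 and 4.5 of MULTI-seq 3 with one another.

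**Figure D3:**
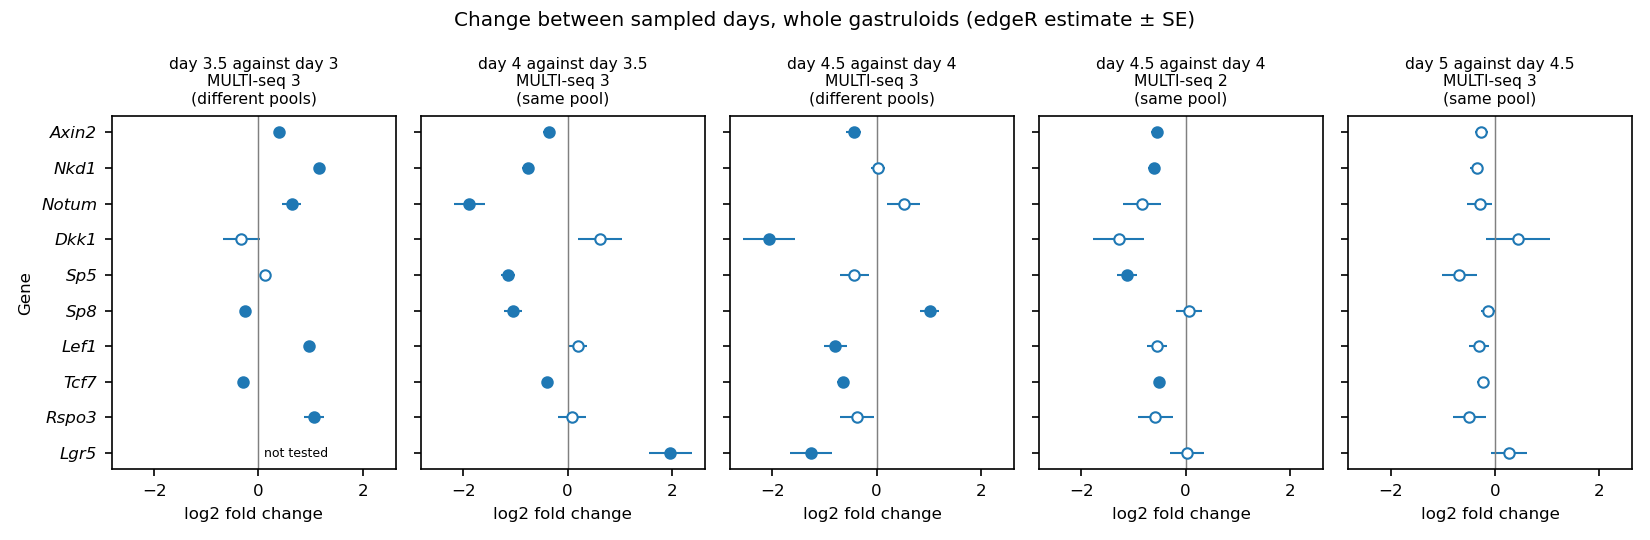
log2 fold change (x axis) of each gene (rows) in the comparisons of days, with the SE as a bar; filled circles passed an edgeR adjusted p of 0.05. Axin2, Nkd1 and Notum lie right of 0 at day 3.5 against day 3 (different pools) and left of 0 at day 4 against day 3.5 (same pool).

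The tests were repeated inside cell types, on sums of the cells of a type, in types with at least 5 gastruloids of at least 20 cells on each day. Between days 3.5 and 4 this left Caudal Epiblast and Early Posterior PSM, and 9 of 16 tests passed, 8 of them lower at day 4. In Caudal Epiblast (18.8% of 8851 genes called) Rspo3 rose from 519 ± 188 to 954 ± 197 CPM (SD, n = 13 on each day, log2 change 0.89, SE 0.15, edgeR adjusted p = 6.72e-05). Sp5 fell there from 200.1 ± 15.4 to 166 ± 18.6 (-0.25, SE 0.05, edgeR adjusted p = 0.00108), Axin2 from 64.2 ± 11.9 to 45.1 ± 11.9 (-0.45, adjusted p = 0.00174) and Notum from 22.2 ± 7.52 to 15.2 ± 4.03 (-0.53, adjusted p = 0.0116). The fall of Sp5 inside Caudal Epiblast was thus 0.25 where that of whole gastruloids was 1.14. Neural gastruloids were fewer at day 4 than at day 3.5, and the part of this shift in classes in these changes was not tested.

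In Early Posterior PSM (36.9% of 10049 genes called) Dkk1 fell from 17.7 ± 6.88 CPM (SD, n = 10) to 4.24 ± 3.33 (n = 15), by 2.17 on the log2 scale (SE 0.21, edgeR adjusted p = 1.79e-09). Whole gastruloids showed no such call for Dkk1. Mature Endoderm held 8.55% of the Dkk1 UMIs at day 3.5 and 46.8% at day 4, and the part of this shift in the result was not tested. Sp5 fell from 128 ± 25.6 to 71.4 ± 16.4, by 1.00 (SE 0.09, edgeR adjusted p = 2.57e-10), with all 15 later gastruloids under the earlier median. Sp8 (-0.58, edgeR adjusted p = 2.81e-05), Tcf7 (-0.36, adjusted p = 4.99e-05) and Axin2 (-0.22, adjusted p = 0.00721) also fell, the last not passing with a minimum of 10 cells (adjusted p = 0.0879). Lef1 (0.05) and Rspo3 (0.14) did not pass. Here too the part of the shift in classes between the days was not tested.

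From day 4.5 to day 5, when no member passed in whole gastruloids, 12 of 42 tests inside 6 types passed, 10 of them lower at day 5. Lef1 fell in 4 types: Late Spinal Cord (61.9 ± 10.1 to 43.1 ± 3.17 CPM, SD, n = 7 and 8, -0.48, edgeR adjusted p = 0.00131), Early Spinal Cord (-0.37, adjusted p = 1.97e-06), NMPs (-0.37, adjusted p = 0.000130) and Late Posterior PSM (-0.26, adjusted p = 0.000123). Between 6.06% of genes in NMPs and 12.3% in Early Spinal Cord passed in these types, with 7.79% in Late Spinal Cord and 6.15% in Late Posterior PSM. Sp5 fell in Early Spinal Cord from 40.2 ± 20.4 (n = 14) to 23.7 ± 12.9 (n = 15, -0.90, SE 0.24, edgeR adjusted p = 0.00862) and in Late Posterior PSM from 114 ± 12.3 (n = 9) to 85.1 ± 24.6 (n = 15, -0.41, adjusted p = 0.00796). Sp8 rose in Early Spinal Cord from 41.9 ± 6.02 to 49.6 ± 5.01 (0.24, SE 0.06, edgeR adjusted p = 0.00430), with all 15 later gastruloids above the earlier median. The part of the shift in classes between the days in these changes was not tested.

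Rspo3 moved in opposite directions inside the axis. It fell in Late Anterior PSM (494 ± 36.8 to 372 ± 72.9 CPM, SD, n = 5 and 12, -0.43, edgeR adjusted p = 0.00950), NMPs (890.2 ± 137 to 711 ± 84.9, n = 8 and 14, -0.39, adjusted p = 4.74e-05) and Late Posterior PSM (1036 ± 75.6 to 913 ± 93.8, n = 9 and 15, -0.22, adjusted p = 0.00197). In Mature Somites it rose from 41.8 ± 8.25 (n = 10) to 57.2 ± 7.88 (n = 16, 0.47, SE 0.09, edgeR adjusted p = 0.000312). The difference itself was tested on the log2 ratio of Mature Somites to Late Posterior PSM in gastruloids that held both, -4.61 on average at day 4.5 (n = 9) and -3.94 at day 5 (n = 15): it moved by 0.67 (two-sided permutation test with 100000 resamples, p = 1e-05, the smallest they can give, adjusted p = 3e-05 over 6 tests). Gene and types were chosen after their changes had been seen in these same gastruloids, so this p is no independent support for the difference. Nkd1 fell in Mature Somites from 27.5 ± 8.75 to 17.9 ± 3.87 (-0.55, edgeR adjusted p = 0.00187). The share of all genes called was 1.81% in Late Anterior PSM and 14.6% in Mature Somites.

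Across the different pools of days 3 and 3.5, 19 of 25 tests inside 3 types passed, 14 of them higher at day 3.5. In Primitive Streak (60.4% of genes called) Rspo3 went from 147 ± 24.8 (n = 24) to 435 ± 65.5 CPM (SD, n = 13, log2 change 1.39, SE 0.07, edgeR adjusted p = 3.97e-26), and Nkd1, Notum, Lef1, Sp5 and Axin2 were higher too. Nkd1 was higher in each of the 3 types, most in Early Posterior PSM (16.5 ± 5.01, n = 5, to 52.5 ± 12.0, n = 10; 1.56, SE 0.22, edgeR adjusted p = 8.78e-06; 37.6% of genes called). Sp8 and Tcf7 were lower in Early Posterior PSM (-0.80 and -0.39) and in Early Neurectoderm (-0.54 and -0.34; 43.5% of genes called). Sp5 was higher in Early Posterior PSM and Primitive Streak (0.46 and 0.76) and lower in Early Neurectoderm (-0.30, edgeR adjusted p = 0.0285), where 3 of 6 later gastruloids were below the earlier median and DESeq2 did not call it (adjusted p = 0.208), nor Axin2 in that type (adjusted p = 0.0661).

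**Figure D4:**
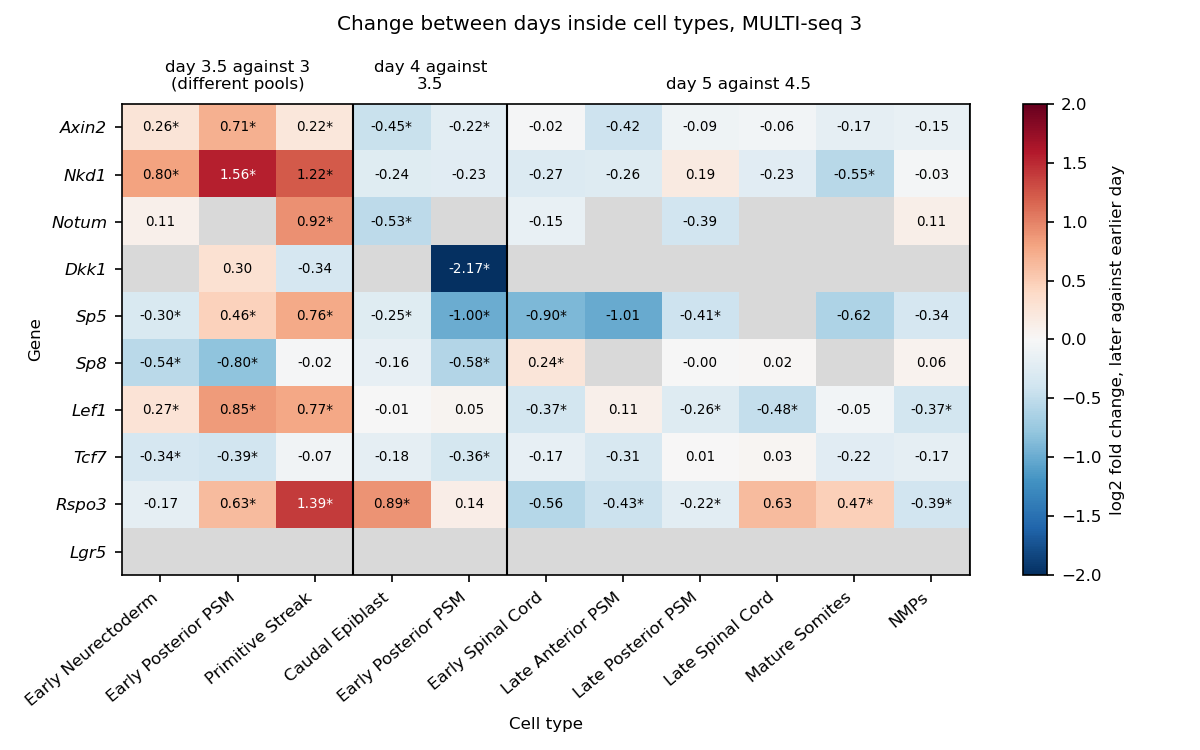
Fitted log2 fold change of each gene (rows) inside each cell type (columns), later against earlier day in MULTI-seq 3; red is higher and blue lower at the later day, asterisks mark an edgeR adjusted p under 0.05 and grey cells were not tested. Dkk1 has the largest fall, 2.17 in Early Posterior PSM, and the Rspo3 row holds both colours at day 5 against day 4.5.

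The authors' classes rest on the cell types a gastruloid holds, so levels of whole gastruloids by class are a description. At day 5 Sp5 was at 2.97, 19.4 and 36.8 CPM (lowest, median and highest) in the 8 neural gastruloids of MULTI-seq 1 and at 53.4, 60.6 and 91.5 in the 7 mesodermal ones, with no overlap. In MULTI-seq 3 the values were 7.14, 10.3 and 11.1 (n = 4) and 33.6, 38.0 and 59.2 (n = 8), also with none. The intermediate gastruloids ranged from 43.4 to 84.1 in MULTI-seq 1 and from 12.7 to 39.5 in MULTI-seq 3. In both experiments they overlapped the mesodermal range. Sp8 went the other way, at 46.6, 51.9 and 62.6 in neural and 17.98, 35.0 and 38.7 in mesodermal gastruloids of MULTI-seq 1. In MULTI-seq 3 Sp8 was at 29.8, 32.4 and 37.1 in neural (n = 4) and 14.7, 20.5 and 32.4 in mesodermal gastruloids (n = 8), and these ranges overlapped. Dkk1 was at 0.000, 0.568 and 3.92 in neural and 2.96, 14.2 and 37.2 in mesodermal gastruloids of MULTI-seq 1.

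The separation was present at earlier days for some members. At day 3.5 Dkk1 was at 3.22, 3.97 and 9.31 CPM in 10 neural and at 19.1, 27.1 and 52.4 in 6 mesodermal gastruloids. Notum was higher in the neural class at that day, at 14.7, 19.9 and 26.9 against 3.66, 7.37 and 13.1, and by day 5 of MULTI-seq 1 it was lower there, at 0.424, 3.05 and 9.79 against 6.06, 10.9 and 14.7. Rspo3 at day 3.5 was at 85.1, 216 and 339 in neural and 487, 609 and 664 in mesodermal gastruloids. In MULTI-seq 3 the medians of Notum at day 5 were 3.05 in neural and 4.92 in mesodermal gastruloids, so the order of the classes had turned there too; the turn was not tested.

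Inside cell types the classes can be compared with the same named cells on both sides. At day 5 the largest number of called members was in Early Spinal Cord. There 5 of 8 members tested were lower in neural gastruloids, in a fit with experiment as a term that called 2.09% of 8837 genes (11 gastruloids of each class). Sp5 was at 24.3, 42.8 and 77.0 CPM (lowest, median and highest) in mesodermal and at 9.12, 17.8 and 38.7 in neural gastruloids (log2 difference -1.27, SE 0.13, edgeR adjusted p = 7.34e-09). Axin2 was at 29.1, 43.6 and 66.5 against 17.5, 25.9 and 44.8 (-0.67, SE 0.11, edgeR adjusted p = 0.000145). The ranges overlapped for both. Within experiments Sp5 differed by -1.25 in MULTI-seq 1 (adjusted p = 2.72e-06) and -1.28 in MULTI-seq 3 (edgeR adjusted p = 0.000152), and Axin2 by -0.89 (adjusted p = 0.00115) and -0.54 (adjusted p = 0.0361).

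Notum (-0.75, SE 0.19, edgeR adjusted p = 0.0227), Rspo3 (-0.59, SE 0.16, adjusted p = 0.0322) and Nkd1 (-0.53, SE 0.13, adjusted p = 0.0157) were lower in neural gastruloids in the joint fit. In MULTI-seq 1 alone the differences were -0.95, -1.01 and -0.75, with edgeR adjusted p of 0.116, 0.000283 and 0.0444. In MULTI-seq 3 alone they were -0.64, -0.27 and -0.42, and none passed (edgeR adjusted p of 0.314, 0.630 and 0.307). DESeq2 did not call Rspo3 (adjusted p = 0.104), and none of the 3 passed with a minimum of 50 cells. Of the markers of nearby types in these cells, the PSM list (Tbx6, Msgn1 and Hes7) summed to 54.2, 90.5 and 139.5 CPM in mesodermal and 46.1, 53.2 and 85.2 in neural gastruloids, nearly all of it Hes7, with Msgn1 at 0 in all 22. The NMP list (T, Sox2, Nkx1-2 and Cdx2) summed to 522, 612 and 763 against 500.3, 647 and 745, most of it Cdx2 (medians 356 and 352). Inside that list the median of T was 22.2 in mesodermal and 13.9 in neural gastruloids and that of Sox2 132 and 170.4, so these genes went opposite ways. The neural list (Sox2, Sox1, Pax6 and Irx3) summed to 153, 207 and 245 against 240.2, 269 and 319. A low somite list (Meox1, Tcf15, Uncx and Pax3) summed to 3.98, 9.83 and 25.5 against 7.02, 17.8 and 21.1. The part of these markers in the result was not tested.

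In Mature Somites 2 of 5 members tested, Axin2 and Nkd1, differed between classes, and both were higher in neural gastruloids; Sp5 and Notum were too low there for a test. Axin2 was at 18.2, 22.5 and 39.9 CPM (lowest, median and highest) in 15 mesodermal and at 20.8, 38.8 and 51.9 in 10 neural gastruloids (log2 difference 0.68, SE 0.10, edgeR adjusted p = 3.08e-06; 15.5% of 9322 genes called). Nkd1 was at 12.2, 17.6 and 58.8 against 17.7, 24.3 and 35.6 (0.47, SE 0.13, edgeR adjusted p = 0.00732). In MULTI-seq 3 alone both passed (0.72 and 0.52, edgeR adjusted p of 0.000178 and 0.00571), and in MULTI-seq 1 alone neither did (0.53 and 0.32, adjusted p of 0.172 and 0.607). Lef1 did not pass in Mature Somites (0.18, edgeR adjusted p = 0.121) but did with DESeq2 (0.25, adjusted p = 0.0437) and with edgeR in MULTI-seq 1 alone (0.56, adjusted p = 0.00686). Rspo3, lower in neural gastruloids in Early Spinal Cord, was at -0.015 here (edgeR adjusted p = 0.960), with 0.64 in MULTI-seq 1 alone (adjusted p = 0.00651) and -0.22 in MULTI-seq 3 alone (adjusted p = 0.194). Tcf7 was at 0.08 (edgeR adjusted p = 0.753). The somite list (Meox1, Tcf15, Uncx and Pax3) summed to 1122, 1357 and 1615 CPM in mesodermal and to 1373, 1588 and 1805 in neural gastruloids, and the neural list to 11.6, 21.3 and 58.3 against 18.4, 29.1 and 55.7 (medians of Irx3 8.09 and 16.1). The median number of Mature Somites cells was 152 in mesodermal and 46.5 in neural gastruloids. The part of these in the result was not tested.

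The contrast between the types was tested in the gastruloids that held both, on the log2 ratio of Early Spinal Cord to Mature Somites with classes permuted within experiments and the difference taken within experiments, so that it need not equal the gap between the pooled means. For Axin2 the ratio was 0.89 in 11 mesodermal and -0.46 in 10 neural gastruloids, a difference of -1.49 (two-sided permutation test, 100000 resamples, p = 1e-05, the smallest they can give, adjusted p = 3e-05 over 6 tests). For Nkd1 it was 0.66 and -0.48 (difference -1.17, permutation adjusted p = 8e-05), for Rspo3 -0.11 and -0.89 (-0.97, permutation adjusted p = 0.00652) and for Lef1 -0.29 and -0.70 (-0.36, permutation adjusted p = 0.0193). Tcf7 gave a difference of -0.38 (permutation adjusted p = 0.168). The classes can be split in 210 ways in MULTI-seq 1 and 330 in MULTI-seq 3, so full enumeration could not give a p as small as 1e-05. Genes and types were chosen after their class differences had been seen in these same gastruloids, so these p-values are no independent support for the contrast.

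Within experiments the difference passed in both for Axin2 and Nkd1, whereas for Rspo3 and Lef1 it passed in MULTI-seq 1 and was near 0 in MULTI-seq 3. For Axin2 it was -1.59 in MULTI-seq 1 (4 mesodermal and 6 neural gastruloids) and -1.40 in MULTI-seq 3 (7 and 4), and for Nkd1 -1.41 and -0.95, with exact two-sided permutation p adjusted over 10 tests of 0.019 or less. For Rspo3 it was -1.94 in MULTI-seq 1 (exact permutation adjusted p = 0.0159) and -0.09 in MULTI-seq 3 (adjusted p = 0.776). For Lef1 it was -0.66 (exact permutation adjusted p = 0.0397) and -0.10 (adjusted p = 0.488), and for Tcf7 -0.52 and -0.25, neither of which passed. The Rspo3 ratio of the mesodermal gastruloids was 1.04 in MULTI-seq 1 and -0.77 in MULTI-seq 3, that of the neural ones -0.90 and -0.87. All these tests were chosen after the values of the types had been seen in these gastruloids, so they too are no independent support.

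In NMPs 1 of 8 members tested differed between classes: Sp5 was at 74.8, 135 and 239.5 CPM in 13 mesodermal and at 70.4, 110.2 and 123.5 in 8 neural gastruloids (-0.53, SE 0.10, edgeR adjusted p = 0.0203), 1 of 6 genes called of 7662 (0.0783%). In Late Posterior PSM 1 of 9 did: Lef1 was at 329, 365 and 409 CPM in 15 mesodermal and at 269.5, 302 and 337 in 7 neural gastruloids (-0.22, SE 0.06, edgeR adjusted p = 0.0451; 0.439% of 8199 genes called). With a minimum of 10 cells Lef1 did not pass (adjusted p = 0.0504). Neither passed within a single experiment: for Sp5 the edgeR adjusted p was 0.114 in MULTI-seq 1 and 0.374 in MULTI-seq 3, and for Lef1 0.0962 and 0.609. Marker medians, with overlapping ranges, also differed between the classes. In Late Posterior PSM the PSM list summed to 416, 496 and 578 CPM in mesodermal and 264, 414 and 472 in neural gastruloids (medians of Hes7 339 and 267), and the somite list to 59.9, 143 and 238 against 53.2, 103 and 181 (medians of Tcf15 107 and 59.8). In NMPs the neural list summed to 74.8, 94.4 and 145.5 against 81.1, 122 and 139 (medians of Irx3 11.2 and 19.0), and the somite list to 4.80, 14.02 and 25.5 against 10.4, 24.9 and 35.5 (medians of Tcf15 7.01 and 12.8). The NMP list summed to 679, 793 and 934 against 634, 799.8 and 905, with medians of 164 and 137 for T and of 429.5 and 494 for Cdx2, which went opposite ways. Their part in these results was not tested.

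**Figure D5:**
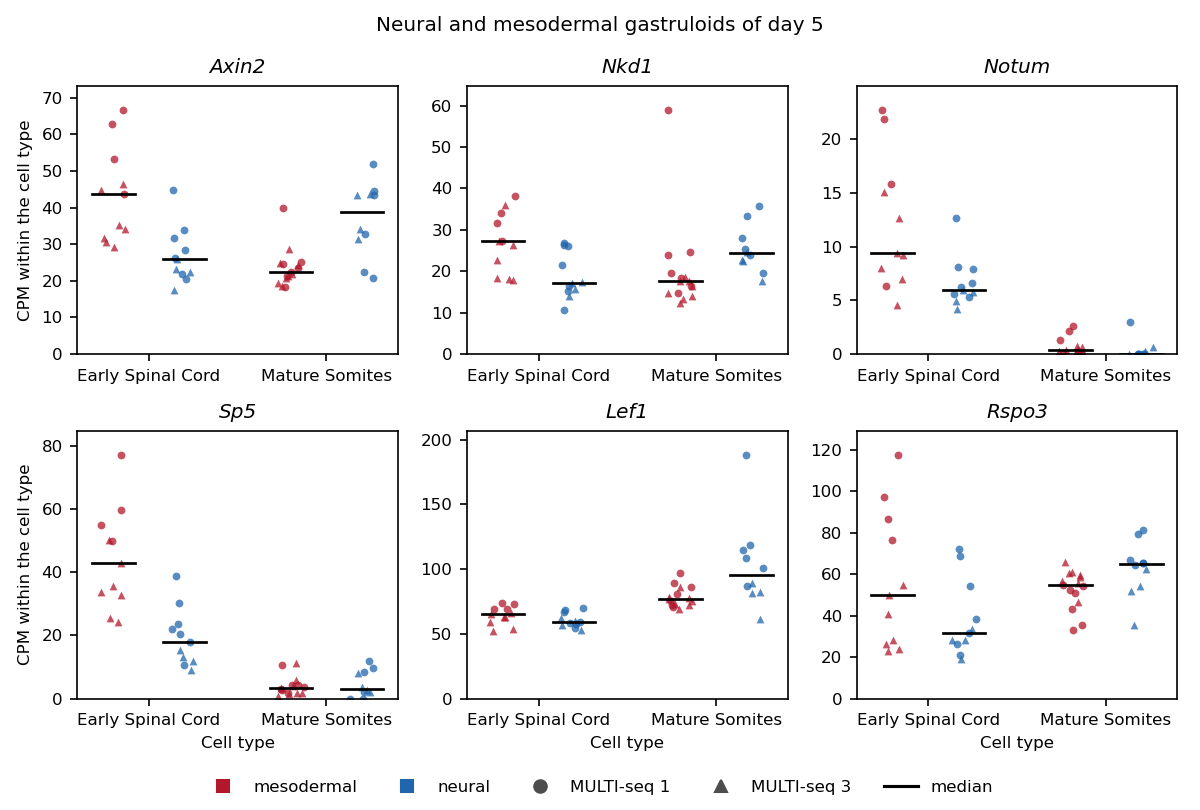
CPM inside Early Spinal Cord and Mature Somites at day 5 (y axes from 0) in mesodermal (red) and neural (blue) gastruloids, with circles for MULTI-seq 1, triangles for MULTI-seq 3 and bars for medians. The Axin2 median falls from 43.6 to 25.9 between the classes in Early Spinal Cord and rises from 22.5 to 38.8 in Mature Somites.

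The rest of the pathway was read from lists, which were chosen with earlier results of these data known. Several genes of the caudal and streak list are also markers of the cell types used above. The part of shifts in types and classes between days in any of the list counts below was not tested. Between days 3.5 and 4 the background was 31.1% of genes higher and 29.2% lower, against which the counts of each list are to be read. Of 14 caudal and streak genes known as Wnt targets 11 fell and 0 rose, led by Cdx1 (log2 change -2.44), Nkx1-2 (-2.21) and Mixl1 (-1.99), with a list median of -1.44 beside 0.01 for all genes. Of 14 Frizzled and co-receptor genes 9 rose and 3 fell, among them Fzd8 (2.48), Fzd4 (1.44) and Fzd10 (-1.28). Of 11 nuclear effectors tested 8 rose, with Tcf7l1 (1.35), Tcf7l2 (1.22) and Pygo1 (0.61) the largest, and Tle3 fell (-0.17). Of 11 other inhibitors tested 1 rose, Sfrp1 (0.84), and 3 fell, among them Sfrp2 (-0.70) and Tnfrsf19 (-0.60). Of 8 genes of the destruction complex 4 rose, with Csnk1e (0.24), Gsk3b (0.20) and Csnk1d (0.18) the largest, and Apc fell (-0.11), a share of 5 in 8 called beside 60.4% of all genes. Of 2 other R-spondin and receptor genes tested 0 passed.

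At day 4.5 against day 4 in MULTI-seq 2, where 7.36% of genes were called, 3 of 13 caudal and streak genes tested fell, Mixl1 (-2.54), Cdx1 (-1.93) and T (-1.29), and 0 rose. Fzd3 (0.60) and Fzd2 (0.44) rose and Fzd6 (-0.63) fell, Pygo1 (0.41) rose and Tle5 (-0.82) fell among the nuclear effectors, and 0 of 9 other inhibitors tested passed. At day 5 against day 4.5, where 13.5% of genes were called, Wnt8a (-1.51) and Cdx1 (-1.46) fell, the only 2 of 12 caudal and streak genes tested that passed, along with Draxin (-0.58) and Znrf3 (-0.18) among 11 other inhibitors tested. Of 14 Frizzled and co-receptor genes Fzd8 (0.83), Lrp5 (0.29) and Fzd2 (0.17) rose and Fzd10 (-0.43) fell, Tle1 (0.30) rose among 11 nuclear effectors, and 0 of 8 destruction complex genes passed. Across the pools of days 3 and 3.5 (39.3% of genes higher and 35.6% lower), 9 of 11 other inhibitors tested were higher at day 3.5 and 0 lower, with Nkd2 (1.93), Sfrp1 (1.54) and Tnfrsf19 (1.26) the largest, and both other R-spondin and receptor genes tested were lower, Lgr4, a receptor related to Lgr5 (-0.82), and Rspo1 (-0.52). Of 13 Frizzled and co-receptor genes tested 7 were higher and 4 lower, with Fzd3 (1.14), Fzd5 (-1.04) and Fzd8 (-0.97) the largest, of 11 nuclear effectors 6 and 1 (Pygo1 1.197, Tle5 -0.78 and Tle3 0.51), and of 7 destruction complex genes 3 and 1 (Apc 0.50, Csnk1a1 -0.17 and Csnk1d 0.16). Of 13 caudal and streak genes tested 10 were higher there, led by Tbx6 (2.02) and Dll1 (1.87), and 3 lower, led by Mixl1 (-1.58).

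Across the pools of days 4 and 4.5 of MULTI-seq 3 (32.4% higher and 33.8% lower), 4 of 14 caudal and streak genes were higher, among them Cdx4 (1.68), and 2 lower, Mixl1 (-1.74) and Cdx1 (-1.16). Of 14 Frizzled and co-receptor genes 2 were higher and 4 lower there (Fzd9 2.58, Fzd5 -2.43 and Lrp5 -0.60 the largest), of 11 nuclear effectors 2 and 6 (Tcf7l1 -0.75, Tle5 -0.55 and Tcf7l2 -0.39), of 8 destruction complex genes 5 and 3 (Apc2 0.81, Btrc -0.54 and Apc -0.51) and of 12 other inhibitors 1 and 3 (Sfrp2 1.54, Frzb -1.02 and Sfrp1 -0.91). Of 2 other R-spondin and receptor genes Lgr4 was higher (0.48). All values named in these lists passed an edgeR adjusted p of 0.05.

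Lanes without gastruloid calls gave single values. In the 10X experiment Sp5 was at 238.5 CPM at day 3 (exact Poisson 95% interval 234 to 243) and at 111 at day 4 (108 to 114), and Dkk1 at 77.1 (74.8 to 79.5) and 33.2 (31.4 to 35.1). Rspo3 was at 198 (194 to 202) at day 3 and 339 (333 to 345) at day 4, and Axin2 at 63.5 (61.4 to 65.7) and 47.3 (45.1 to 49.5). Nkd1 was at 43.3 (41.6 to 45.1) at day 3 and 52.2 (49.9 to 54.6) at day 4. Lef1 was at 180 (177 to 184) and 218 (213 to 223). With 1 lane a day there is no test, and the intervals cover counting error only. The 2 lanes of pool C of MULTI-seq 2, which mix days 4 and 4.5, gave 79.6 and 82.2 CPM for Sp5 and 282 and 272 for Rspo3.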

How the data were processed

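Single-cell RNA was measured in 18 lanes. The matrices the authors deposited hold UMI counts per gene and cell barcode; the submitters' processing notes name Cell Ranger 6.0.0, Seurat and build mm10. The authors' deposited table gave the final cells, cell type, gastruloid barcode, day and class; 53730 of 77674 cells had a single-gastruloid call, and 9 cells without a barcode in the matrix were dropped. Every cell in it passed the authors' quality column and none was a doublet by their calls, so no doublet caller was run here. The labels' day 3 and 3.5 lanes of MULTI-seq 2 had no cells in that table and were not analysed here.

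Counts were summed per gastruloid over lanes, which are technical splits (minimum 30 cells, 135 of 136 kept), and per gastruloid and type (minimum 20). No source says that gastruloids came from separate cultures, so p-values measure the spread between these gastruloids. Sums were tested across all genes with edgeR 4.0.16 (filterByExpr, TMM, quasi-likelihood, Benjamini-Hochberg) in R 4.3.3, checked on simulated data; DESeq2 1.42.0, other scalings, filters and minimums and left-out lanes were alternatives. CPM use library totals; counts of gastruloids beyond a median, and statements of overlap in fits, use TMM-scaled values. Types and classes came from expression, so tests inside them are conditional on that naming. Named genes were the 10 members, from each pathway list the 3 with the largest change among those called (Tle3, Apc and, at day 5, Fzd2 were added after their values were seen), and for each member the 2 genes most alike over types, of which 1 is not reported here. The members and lists were chosen with earlier results of these data known. Coordinates come from GENCODE vM21 (GRCm38), promoter sequences from RefSeq.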

Additional observations from a re-analysis of the deposited data

Results flagged for a closer look

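A single gastruloid stood apart from the others of its class and day, by Dixon's test at the 95% level, in 17 of 130 sets of 4 to 10 values; chance flags about 1 in 20 sets, and sets of a gene family in the same gastruloids are not independent. At day 5 of MULTI-seq 1, among 9 intermediate gastruloids, Dkk1 had a highest value of 42.7 CPM (next 12.1), Lgr5 of 3.63 (next 1.11) and Tcf7 a lowest of 15.2 (next 25.2). Among the 7 mesodermal ones, Nkd1 reached 60.3 (next 42.6) and Dkk1 37.2 (next 17.0), and among the 8 neural ones Axin2 reached 38.5 (next 29.5) and Nkd1 28.8 (next 23.0).

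In 8 mesodermal gastruloids of day 4 of MULTI-seq 2 the highest Notum was 16.9 CPM (next 7.09). In 10 neural gastruloids of day 3.5 of MULTI-seq 3 Axin2 reached 83.4 (next 64.5) and Tcf7 50.1 (next 39.6), and Sp8 had a lowest value of 25.7 (next 34.6). In 9 mesodermal gastruloids of day 4.5 Sp5 reached 107 (next 72.8), Dkk1 28.5 (next 8.93) and Lgr5 8.01 (next 3.43). At day 5 of MULTI-seq 3 Axin2 reached 41.6 (next 34.9) and Sp5 59.2 (next 43.2) among 8 mesodermal gastruloids, and Nkd1 18.3 (next 17.8) among 4 neural ones. The lowest Nkd1 of these neural gastruloids was 17.7, so this flag rests on a narrow range.

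Tests of a difference between groups gave the other entries. The interaction fit among them called 33.9% of 12551 genes, near the share of members it called. The signed log2 change from day 4 to 4.5 in MULTI-seq 3 minus that in MULTI-seq 2 was 0.95 for Sp8 (1.02 and 0.06), 1.37 for Notum (0.52 and -0.84) and 0.64 for Nkd1 (0.03 and -0.62; edgeR interaction, adjusted p = 0.0158, 0.0281 and 0.00907). The log2 ratio of Early Spinal Cord to Mature Somites differed between neural and mesodermal gastruloids by -1.49 for Axin2, -1.17 for Nkd1, -0.97 for Rspo3 and -0.36 for Lef1. Within experiments it was -1.94 in MULTI-seq 1 and -0.09 in MULTI-seq 3 for Rspo3, and -0.66 and -0.10 for Lef1; neither passed in MULTI-seq 3 (exact permutation adjusted p of 0.776 and 0.488). The ratio of Mature Somites to Late Posterior PSM for Rspo3 moved by 0.67 from day 4.5 to day 5. These 5 ratio tests over both experiments or days are listed because they passed (permutation adjusted p of 0.0193 or less). The other of the 6 run, that of Tcf7, did not (-0.38, permutation adjusted p = 0.168). All 6 were chosen after the values had been seen.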

How the results depend on the processing

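No paired analysis was possible because the numbers the labels share across groups are lanes, technical splits of a pool, and gastruloids carry no numbers that pair them. Of 705 recomputed values for single genes 657 kept their direction and their side of the threshold, 26 lost and 10 gained a call, and 12 changed sign. At day 5 against day 4.5 the count of members called was 1 in place of 0 with DESeq2 and without lane B. Called genes at day 4.5 against day 4 in MULTI-seq 2 fell from 814 to 535 without lane 2 and to 340 without lane 3. The interaction called 0 members with at least 100 cells (3 in the main fit); its alternatives and that with library totals were chosen after seeing the data. Inside types, a minimum of 10 cells gave 17 calls in place of 9 at day 4 against 3.5 and 29 in place of 19 at day 3.5 against 3, and a minimum of 50 gave 6 in place of 12 at day 5 against 4.5 and 4 in place of 9 between classes; MULTI-seq 3 alone gave 4 between classes. These minimums and subsets change how many types, genes and gastruloids enter. Reversed signs, none called except the last, with the cause not tested, were Lgr5 -0.12 in MULTI-seq 2 (minimum of 100 cells), Nkd1 at day 4.5 against 4 of MULTI-seq 3 -0.049 without a filter and -0.17 with library totals, the interaction of Axin2 -0.11 and Rspo3 -0.016 with library totals, at a minimum of 50 cells Axin2 0.071 in Early Spinal Cord and Sp8 -0.053 in Late Spinal Cord (day 5 against 4.5), between classes in MULTI-seq 3 alone Tcf7 0.16 and Rspo3 -0.051 in Late Posterior PSM and Axin2 0.021 in NMPs, and in Mature Somites Rspo3 0.13 with DESeq2 and 0.64 in MULTI-seq 1 alone (edgeR adjusted p = 0.00651). No type had enough gastruloids for a test of days inside types in MULTI-seq 2. Lgr5 was too low for a test inside types of days, and in the shallowest gastruloid (1293296 UMIs) 1 CPM is little more than a single UMI.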
